A study of Mus musculus with 9 samples.

Results

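The genes of glycolysis and lactate handling were read in bulk RNA sequencing of mouse kidney after cisplatin. The set holds 31 genes, chosen by symbol, out of 55385 gene IDs with a value in every library. They are the hexokinases, the enzymes from glucose 6-phosphate to pyruvate, the lactate dehydrogenases, the bifunctional PFKFB enzymes and TIGAR, ketohexokinase, the glucose transporter gene Slc2a1 and 3 monocarboxylate transporters. All 31 symbols were found. Of these, 27 reached 1 FPKM in at least 3 of the 9 libraries and were tested among 13718 genes, while Hk3, Pfkfb1, Eno2 and Slc16a3 stayed under that filter. FPKM divides the fragments of a gene by its transcript length and by the size of the library, so levels can be set side by side between genes.

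All animals were mice of the strain C57BL/6, with no engineered allele named in the labels. The sham group had saline by intraperitoneal injection. The other groups had cisplatin, a DNA-crosslinking chemotherapy drug that is toxic to renal tubules, by the same route at 20 mg/kg, and kidneys were taken 3 days (Cis3d) or 7 days (Cis7d) later. Each group had 3 libraries, which the series calls biological repeats. The labels give no age, sex or day of collection for the sham kidneys.

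Glycolysis splits glucose into pyruvate, and lactate dehydrogenase exchanges pyruvate and lactate. The proximal tubule of the kidney makes glucose and burns fatty acids and lactate, whereas the distal segments and the medulla use more glucose. Many steps have several isoform genes, and among them Khk, Pklr and Slc2a2 are known from liver, gut and proximal tubule, while Hk2, Pkm, Pfkp, Ldha and Slc2a1 are known from growing, hypoxic or injured cells and from distal segments.

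The 9 libraries summed to 421810 to 509537 FPKM, and read depth is unknown because the files hold no counts. Libraries of one group correlated with each other (log2(FPKM + 1), Pearson) at 0.948 to 0.977 among sham, 0.942 to 0.972 in Cis3d and 0.973 to 0.98 in Cis7d, and sham library 1 and day 3 library 1 stood somewhat apart from the others of their groups. The labelled tissue was checked with 8 proximal tubule markers, whose summed level was 1988, 3973 and 4127 FPKM in sham, 257, 358 and 449 in Cis3d, and 2842, 2629 and 3141 in Cis7d. In this bulk tissue, fewer cells of a type and less RNA per cell cannot be told apart. Markers of injured tubule summed to 337 to 745 FPKM in sham, 8226 to 12964 in Cis3d and 582 to 1908 in Cis7d.

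At day 3 the genes of this set moved in both directions, and by day 7 most of the changes seen at day 3 were no longer called. Against sham, 8 of 27 tested genes were higher at day 3 (29.6%; 39.3% of all genes tested were higher) and 11 were lower (40.7%, beside 20.6%). In all, 70.4% of the set and 59.9% of all genes were called at day 3, so the set's share lay near the background. The median log2 fold change was -0.19 over the 27 genes and 0.25 over all genes tested. Scaling by median-of-ratios moved the median of all genes to 0.03, the higher and lower calls over all genes from 5389 and 2825 to 4083 and 3951, and those of the set to 6 and 13. The 8 higher genes were Hk2, Slc2a1, Slc16a1, Eno3, Pfkp, Pkm, Pfkfb4 and Pgam1. The 11 lower genes were Pgam2, Khk, Pfkm, Ldhb, Slc16a7, Tpi1, Pfkl, Ldha, Gpi1, Gapdh and Aldoa.

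At day 7, 4 of 27 genes were higher than sham (14.8%, beside 19.3% of all genes) and 3 were lower (11.1%, beside 10.4%). Together that is 25.9% of the set and 29.7% of all genes, with medians of -0.12 and 0.06. With a trend on GC content and length removed, 18.5% of the set and 6.24% of all genes were called at day 7. The share of all genes was 18.0% without sham library 2 and 19.3% to 19.7% without any 1 of the day 7 libraries. The split was 3 higher and 4 lower under median-of-ratios scaling and 6 higher and 2 lower when FPKM was rescaled to genes not encoded by mitochondrial DNA. Without day 7 library 3, 4 genes were called at day 7, 2 of them higher. Between day 7 and day 3, 10 genes were higher (37.0%, beside 21.7%) and 5 lower (18.5%, beside 33.7%), and 55.6% of the set and 55.4% of all genes were called. Pfkl, Pfkm, Tpi1, Pgam2, Ldha, Ldhb and Khk were lower at day 3, not called at day 7 and higher at day 7 than at day 3. Hk2, Eno3, Pkm and Slc2a1 had the opposite order. Both comparisons with sham use the same 3 sham libraries.

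**Figure D1:**
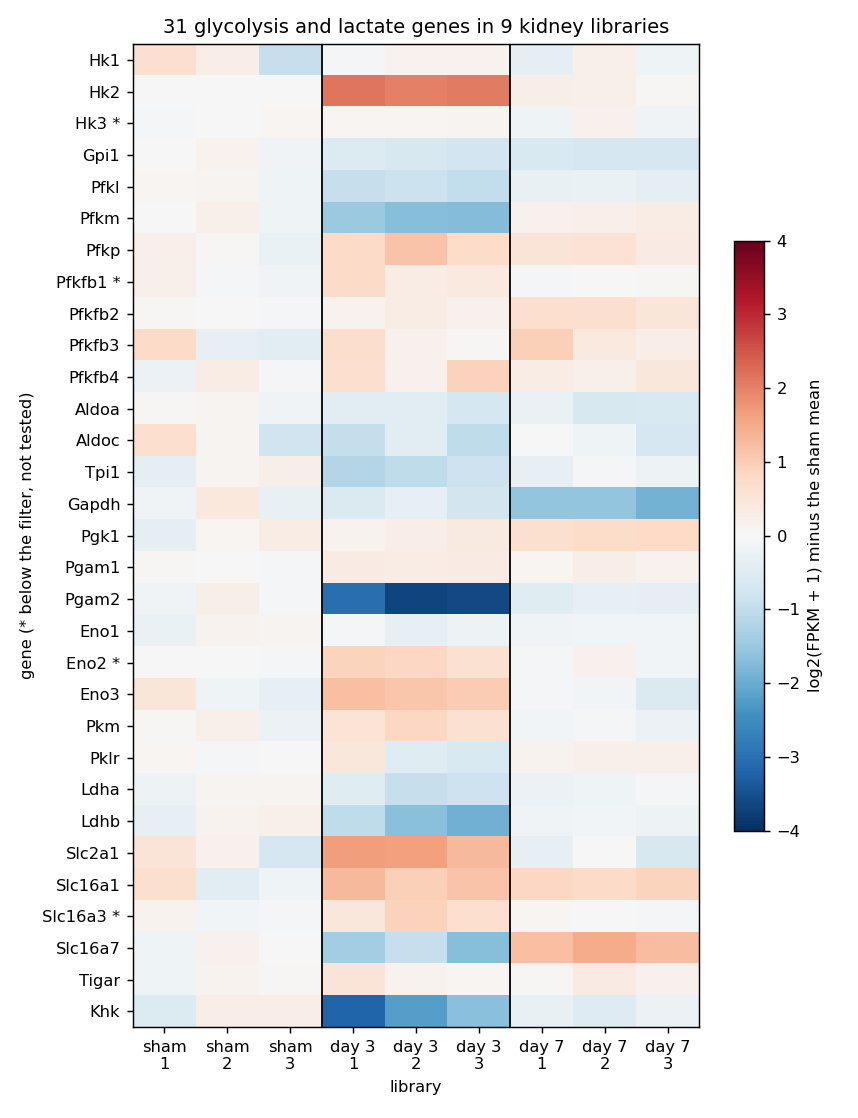
Colour shows log2(FPKM + 1) minus the sham mean for each of the 31 genes (vertical axis) in each of the 9 libraries (horizontal axis), with black lines between the groups. The deepest colours are in the 3 day 3 libraries, red for Hk2 and Slc2a1 and blue for Pgam2, Khk, Pfkm and Ldhb, and at day 7 Gapdh is the bluest.

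Promoter sequences of 4 genes are shown because the genes differ in how they moved. Hk2 and Slc2a1 rose most at day 3, Ldha fell although it is a textbook target of hypoxia-inducible factor, and Pgam2 fell most. Each stretch holds the 250 bases before the RefSeq start on GRCm38.p6, 5′ to 3′ on the strand of the gene: Hk2 at chr6:82774455-82774704, minus strand, Slc2a1 at chr4:119108495-119108744, plus strand, Ldha at chr7:46845554-46845803, plus strand (the first of its listed starts) and Pgam2 at chr11:5803797-5804046, minus strand. Capitals mark the core letters of the hypoxia response element, ACGTG or GCGTG, on either strand (CACGT or CACGC where the core is on the other strand).
Hk2: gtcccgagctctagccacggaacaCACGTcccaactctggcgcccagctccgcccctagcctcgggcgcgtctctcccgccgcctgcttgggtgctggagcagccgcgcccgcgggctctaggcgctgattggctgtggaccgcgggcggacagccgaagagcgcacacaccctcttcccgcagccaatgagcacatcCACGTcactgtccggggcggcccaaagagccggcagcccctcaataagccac
Slc2a1: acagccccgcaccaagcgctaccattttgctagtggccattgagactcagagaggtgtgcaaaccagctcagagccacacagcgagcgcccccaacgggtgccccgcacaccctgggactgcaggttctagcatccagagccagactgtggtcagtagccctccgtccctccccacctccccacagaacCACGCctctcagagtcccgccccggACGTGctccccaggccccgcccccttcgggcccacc
Ldha: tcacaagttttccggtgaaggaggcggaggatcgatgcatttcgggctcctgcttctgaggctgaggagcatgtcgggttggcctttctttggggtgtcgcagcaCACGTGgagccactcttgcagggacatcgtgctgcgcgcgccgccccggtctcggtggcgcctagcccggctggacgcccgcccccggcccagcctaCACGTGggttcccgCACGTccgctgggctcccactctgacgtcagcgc
Pgam2: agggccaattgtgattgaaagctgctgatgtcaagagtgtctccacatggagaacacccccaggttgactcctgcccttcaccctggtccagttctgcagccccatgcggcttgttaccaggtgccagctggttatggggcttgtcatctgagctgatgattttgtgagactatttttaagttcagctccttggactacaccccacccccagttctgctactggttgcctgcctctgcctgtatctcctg

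The Hk2 and Slc2a1 stretches hold 2 core matches each, that of Ldha holds 5 and that of Pgam2 holds 0. In Ldha, 4 of the 5 come from the E-box CACGTG, which occurs 2 times and holds the core on both strands. Of the 31 genes, 30 had a RefSeq window, and 24 of those 30 (80.0%) had either core in at least 1 window, beside 11226 of 27025 genes with a window (41.5%). By call at day 3, the core was present in 8 of 8 higher genes, 7 of 10 lower genes and 6 of 8 genes that were not called. A match is a run of letters and not a measured binding site, and genes with more listed starts have more letters searched. The background holds every gene with a window, tested or not. It was not matched for GC content, and both cores contain the letters CG.

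Hexokinases trap glucose as glucose 6-phosphate, and Hk2 (chromosome 6, 82725025 to 82774454, GRCm38) is the inducible form. Hk2 stood at 0.11, 0.11 and 0.10 FPKM in sham, 3.93, 3.50 and 3.66 in Cis3d, and 0.31, 0.27 and 0.15 in Cis7d. All 3 day 3 libraries were far above the other 6, and the day 7 libraries lay just above sham without being called (adjusted p = 0.25). The gene passed the filter through its day 3 libraries alone, and there it rose by 2.08 ± 0.10 on the log2(FPKM + 1) scale (SE, limma, Benjamini-Hochberg adjusted p = 2.87e-06), a scale that understates changes of genes this low.

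Hk1 (chromosome 10, 62268855 to 62379908), the form found in most cells, was at 24.79, 18.49 and 7.67 FPKM in sham, 14.96, 16.96 and 16.94 in Cis3d, and 11.49, 17.93 and 13.55 in Cis7d. Its sham values span those of both cisplatin groups, and no difference was called (day 3 log2 fold change 0.08 ± 0.35, adjusted p = 0.859). Summed markers of collecting duct principal cells were 455, 331 and 205 FPKM in sham libraries 1 to 3. Hk1, Aldoc and Slc2a1 had the same order. So did the summed markers of thick ascending limb (1925, 1653 and 1202 FPKM), podocyte, endothelium and injured tubule. In Cis3d the principal cell sums were 154, 110 and 64.2 FPKM, an order that Slc2a1 shared and Hk1 and Aldoc did not. In Cis7d they were 277, 163 and 149 FPKM, an order that Aldoc shared and Hk1 and Slc2a1 did not. The part of any of these cell types in these values was not tested. Hk3, known from blood cells, was at most 0.29 FPKM in any library. The share of Hk2 in the summed hexokinase FPKM was 0.76% ± 0.433 (SD, n = 3) in sham, 18.4% ± 1.95 in Cis3d and 1.73% ± 0.799 in Cis7d.

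Gpi1 (chromosome 7, 34201330 to 34230336), which converts glucose 6-phosphate to fructose 6-phosphate, was lower at both times. It was at 83.87, 95.00 and 77.59 FPKM in sham, 58.39, 54.43 and 49.53 in Cis3d, and 55.04, 53.29 and 53.58 in Cis7d. Every cisplatin library was below every sham library, by -0.65 ± 0.11 (adjusted p = 0.00109) at day 3 and -0.65 ± 0.11 (adjusted p = 0.00426) at day 7, and the call held under each alternative run.

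Phosphofructokinase, the committed step of glycolysis, is built from liver (Pfkl), muscle (Pfkm) and platelet (Pfkp) type subunits, and the isoforms moved apart at day 3. Pfkm (chromosome 15, 98092589 to 98132451) was at 13.98, 16.30 and 12.29 FPKM in sham, 4.43, 3.63 and 3.49 in Cis3d, and 15.96, 16.41 and 17.36 in Cis7d. The day 3 libraries lay apart from the other 6, and the gene fell by 1.64 ± 0.13 in log2 units (adjusted p = 2.03e-05) and rose by 1.86 ± 0.13 from day 3 to day 7 (adjusted p = 1.35e-05).

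Pfkl (chromosome 10, 77986947 to 78010083) was at 9.59, 9.79 and 7.93 FPKM in sham, 4.35, 4.51 and 4.09 in Cis3d, and 7.11, 7.39 and 6.83 in Cis7d. Its groups did not overlap, and it fell by 0.92 ± 0.11 at day 3 (adjusted p = 0.000136). The day 7 difference of -0.31 ± 0.11 was not called (adjusted p = 0.0585). It passed without sham library 3 (-0.40, adjusted p = 0.0289) and with a filter at 5 FPKM (adjusted p = 0.0459). Scaling by median-of-ratios (-0.42, adjusted p = 0.0117) or by quantiles (-0.38, adjusted p = 0.0172) also gave a call. Over all alternatives the day 7 value ran from -0.42 to 0.02.

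Pfkp (chromosome 13, 6579768 to 6648777) was at 3.37, 2.96 and 2.18 FPKM in sham, 5.51, 7.41 and 5.31 in Cis3d, and 4.48, 4.65 and 3.77 in Cis7d. It was highest at day 3 and lowest in sham with no overlap between groups, and it rose by 0.88 ± 0.16 at day 3 (adjusted p = 0.00157). At day 7 the difference was 0.47 ± 0.16 (adjusted p = 0.0568), which passed without sham library 1 (adjusted p = 0.0439) or day 3 library 2 (adjusted p = 0.0478). The overlapping gene Pitrm1 on the other strand averaged 8.75, 9.32 and 12.9 FPKM in the 3 groups.

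Within the enzyme, the share of Pfkp in summed FPKM went from 10.8% ± 1.49 in sham to 42.5% ± 4.68 in Cis3d and 15.4% ± 1.63 in Cis7d. Pfkm took 54.3% ± 2.17, 27.1% ± 3.83 and 59.2% ± 2.48. The sum of the 3 genes was 26.1 ± 3.4, 14.2 ± 1.33 and 28.0 ± 0.451 FPKM. The day 3 shares and sums did not overlap those of sham (exact permutation test, two-sided, p = 0.1, the smallest that 3 against 3 libraries allow).

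**Figure D2:**
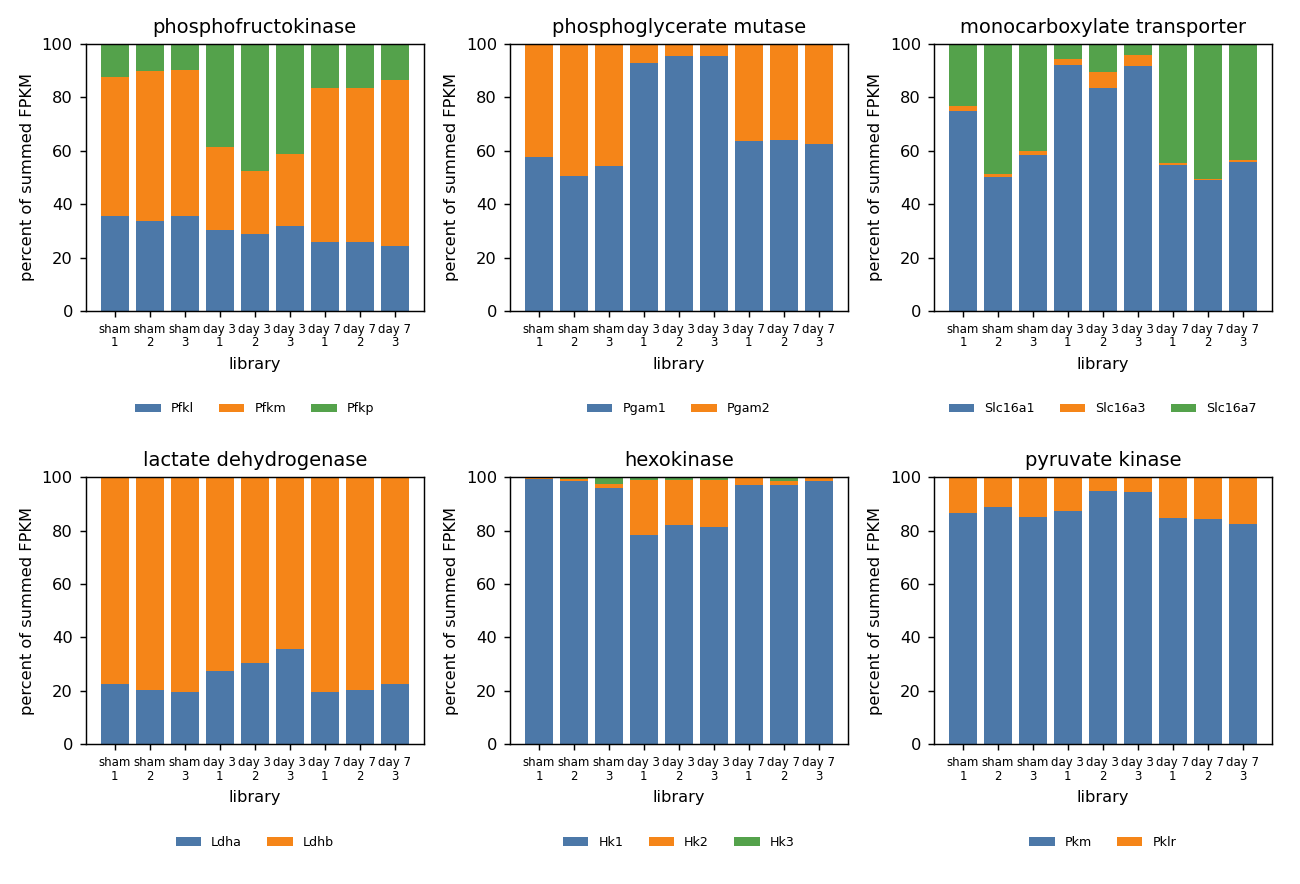
Each bar is 1 library (horizontal axis) and shows the percent of the summed FPKM of a family that each isoform gene supplies (vertical axis), for 5 enzymes and the monocarboxylate transporters. At day 3 Pfkp, Pgam1, Ldha, Hk2 and Slc16a1 take larger shares than in any sham library, while the share of Pkm in day 3 library 1 (87.5%) lies among the sham values.

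Fructose 2,6-bisphosphate is the main activator of phosphofructokinase, and the PFKFB enzymes make and degrade it, while TIGAR degrades it. Pfkfb2 (chromosome 1, 130689182 to 130729253), the heart and kidney type, was at 1.34, 1.27 and 1.16 FPKM in sham, 1.5, 1.76 and 1.55 in Cis3d, and 2.57, 2.52 and 2.17 in Cis7d. The groups were in that order without overlap, and the gene rose by 0.60 ± 0.10 at day 7 (adjusted p = 0.00429), while the day 3 difference of 0.21 ± 0.10 was not called (adjusted p = 0.116). With the trend on GC content and length removed, the day 7 value was 0.25 (adjusted p = 0.213). The overlapping gene Yod1 on the other strand averaged 0.92, 4.5 and 1.59 FPKM.

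Pfkfb4 (chromosome 9, 108991778 to 109032228) was at 0.81, 1.60 and 1.07 FPKM in sham, 2.40, 1.41 and 3.07 in Cis3d, and 1.64, 1.47 and 1.94 in Cis7d. Sham and day 3 overlapped through day 3 library 2. The rise of 0.59 ± 0.21 (adjusted p = 0.0359) was lost under 10 alternatives, among them leaving out sham library 1 or 3, day 3 library 1 or 3, or day 7 library 1, with adjusted p of 0.052 to 0.121. Pfkfb3 (chromosome 2, 11471433 to 11554077), the strongly kinase-active form, was at 3.38, 1.04 and 0.88 FPKM in sham, 3.17, 1.90 and 1.64 in Cis3d, and 3.99, 2.34 and 2.08 in Cis7d. Library 1 was the highest of each group, and neither difference was called (0.31 and 0.54, both ± 0.34), but without sham library 1 they were 0.70 (adjusted p = 0.048) and 0.92 (adjusted p = 0.0354). The day 7 difference was also called with the replicate number as a block in the fit (0.54, adjusted p = 0.0404).

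Tigar (chromosome 6, 127085116 to 127109557), a p53 target in human cells, ranged from 1.99 to 3.88 FPKM over the 9 libraries with no call at either time (0.25 ± 0.16 and 0.19 ± 0.16). Pfkfb1, the liver type, was under the filter at 0.10 to 0.38 FPKM in sham, 0.48 to 1.06 in Cis3d and 0.14 to 0.24 in Cis7d.

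Aldolase splits fructose 1,6-bisphosphate. Aldoa (chromosome 7, 126795234 to 126800751), the form of muscle and most cells, was at 244.80, 258.12 and 215.14 FPKM in sham, 177.65, 179.41 and 146.66 in Cis3d, and 198.13, 154.12 and 156.37 in Cis7d. All cisplatin libraries were below all sham libraries, with differences of -0.51 ± 0.14 (adjusted p = 0.0135) and -0.50 ± 0.14 (adjusted p = 0.0302). Both calls were lost with the GC and length trend removed, at -0.22 (adjusted p = 0.157) for day 3 and 0.01 (adjusted p = 0.958) for day 7, and both were lost without sham library 2 (adjusted p = 0.0513 and 0.102). Leaving out sham library 1 (adjusted p = 0.0656), day 7 library 2 (adjusted p = 0.0985) or day 7 library 3 (adjusted p = 0.103) ended the day 7 call as well.

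Aldoc (chromosome 11, 78322968 to 78327781), the brain type, was at 8.11, 5.24 and 2.33 FPKM in sham, 1.99, 3.30 and 1.85 in Cis3d, and 4.83, 4.08 and 2.62 in Cis7d, with overlap and no call (day 3 -0.79 ± 0.35, adjusted p = 0.0827). Without sham library 3 the day 3 value was -1.18 (adjusted p = 0.0082).

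Tpi1 (chromosome 6, 124810586 to 124814296), which interconverts the triose phosphates, was at 140.52, 191.84 and 212.66 FPKM in sham, 79.20, 87.73 and 101.02 in Cis3d, and 141.54, 172.95 and 154.51 in Cis7d. At day 3 it fell by 1.0 ± 0.17 with every library below the other 6 (adjusted p = 0.00109), and the day 7 libraries lay within the sham range (-0.20 ± 0.17, adjusted p = 0.419). Spsb2, which overlaps it on the other strand, averaged 14.2, 3.52 and 7.99 FPKM, and whether the authors' quantification used the strand is not given in the labels.

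In the steps from glyceraldehyde 3-phosphate to pyruvate, Gapdh and Pgk1, which catalyse neighbouring reactions, moved apart at day 7. Gapdh (chromosome 6, 125161715 to 125166467), often used as a reference gene, was at 57.44, 84.03 and 51.14 FPKM in sham, 41.72, 49.61 and 37.60 in Cis3d, and 20.14, 20.49 and 16.20 in Cis7d. The 3 groups did not overlap. It fell by 1.68 ± 0.20 on the log2 scale at day 7 (adjusted p = 0.00152), a call that held under each alternative run. At day 3 the difference of -0.54 ± 0.20 (adjusted p = 0.0392) was lost under 10 alternatives, among them leaving out sham library 2 (-0.34, adjusted p = 0.123), day 3 library 1 or 3 (adjusted p = 0.0812 and 0.118) or day 7 library 1 or 2 (adjusted p = 0.0552 and 0.0524). Its listed processed pseudogene Gapdh-ps15 was at 1.92 to 3.49 FPKM, and the labels do not say how shared reads were assigned.

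Pgk1 (chromosome X, 106187100 to 106203699), the first ATP-making enzyme of the pathway, was at 107.35, 147.57 and 170.96 FPKM in sham, 153.61, 168.90 and 179.37 in Cis3d, and 216.72, 230.57 and 243.20 in Cis7d. The day 7 libraries were above all others, a rise of 0.72 ± 0.17 against sham (adjusted p = 0.0141). Median-of-ratios scaling (0.60, adjusted p = 0.0564) and leaving out day 7 library 3 (0.68, adjusted p = 0.0512) each ended that call. Day 3 overlapped sham (0.26 ± 0.17, adjusted p = 0.211). The difference between day 7 and day 3, 0.46 ± 0.17 (adjusted p = 0.0438), missed the threshold when any 1 library other than sham 1 or sham 3 was left out (adjusted p of 0.0604 to 0.124).

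Phosphoglycerate mutase turns 3-phosphoglycerate into 2-phosphoglycerate, and its muscle-type gene Pgam2 (chromosome 11, 5801640 to 5803733) had the largest fall of the set at day 3. Pgam2 was at 80.52, 104.28 and 84.35 FPKM in sham, 10.23, 6.12 and 6.37 in Cis3d, and 63.38, 70.38 and 69.08 in Cis7d. The day 3 libraries lay far below the rest, and the gene fell by 3.43 ± 0.19 on the log2 scale (adjusted p = 4.79e-06). From day 3 to day 7 it rose by 3.03 ± 0.19 (adjusted p = 8.08e-06). The day 7 libraries were all below sham, by -0.40 ± 0.19 without a call (adjusted p = 0.141, and 0.034 without day 3 library 1).

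Pgam1 (chromosome 19, 41911923 to 41918660), the form of most tissues, was at 110.35, 106.83 and 100.20 FPKM in sham, 133.09, 129.20 and 133.30 in Cis3d, and 111.04, 124.44 and 116.27 in Cis7d. It was above sham in each cisplatin library, with a called difference of 0.32 ± 0.10 at day 3 (adjusted p = 0.0188) that was 0.02 (adjusted p = 0.873) under median-of-ratios scaling and missed the threshold without sham library 3 (adjusted p = 0.0552). Its processed pseudogene Pgam1-ps2 was at 28.80 to 34.02 FPKM in sham, 22.22 to 23.73 in Cis3d and 19.53 to 21.44 in Cis7d. The share of Pgam2 in the summed mutase FPKM was 45.8% ± 3.61 in sham, 5.41% ± 1.5 in Cis3d and 36.6% ± 0.609 in Cis7d.

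Because Pgam2, Eno3 and Pfkm are muscle-type isoforms, 8 skeletal muscle markers were read beside them. They summed to 1.01 to 1.28 FPKM in sham, 1.85 to 2.71 in Cis3d and 0.77 to 1.05 in Cis7d, and 6 of the 8 were below 1 FPKM in every library. The exceptions were Mylpf, a myosin light chain, at 0.95 to 1.18 FPKM in sham and up to 1.55 at day 3, and Tnnc2, a troponin, which was at 0 in sham and reached 1.14 at day 3. Ckm, the muscle creatine kinase, was at most 0.11 FPKM and Acta1, skeletal actin, at most 0.14.

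**Figure D3:**
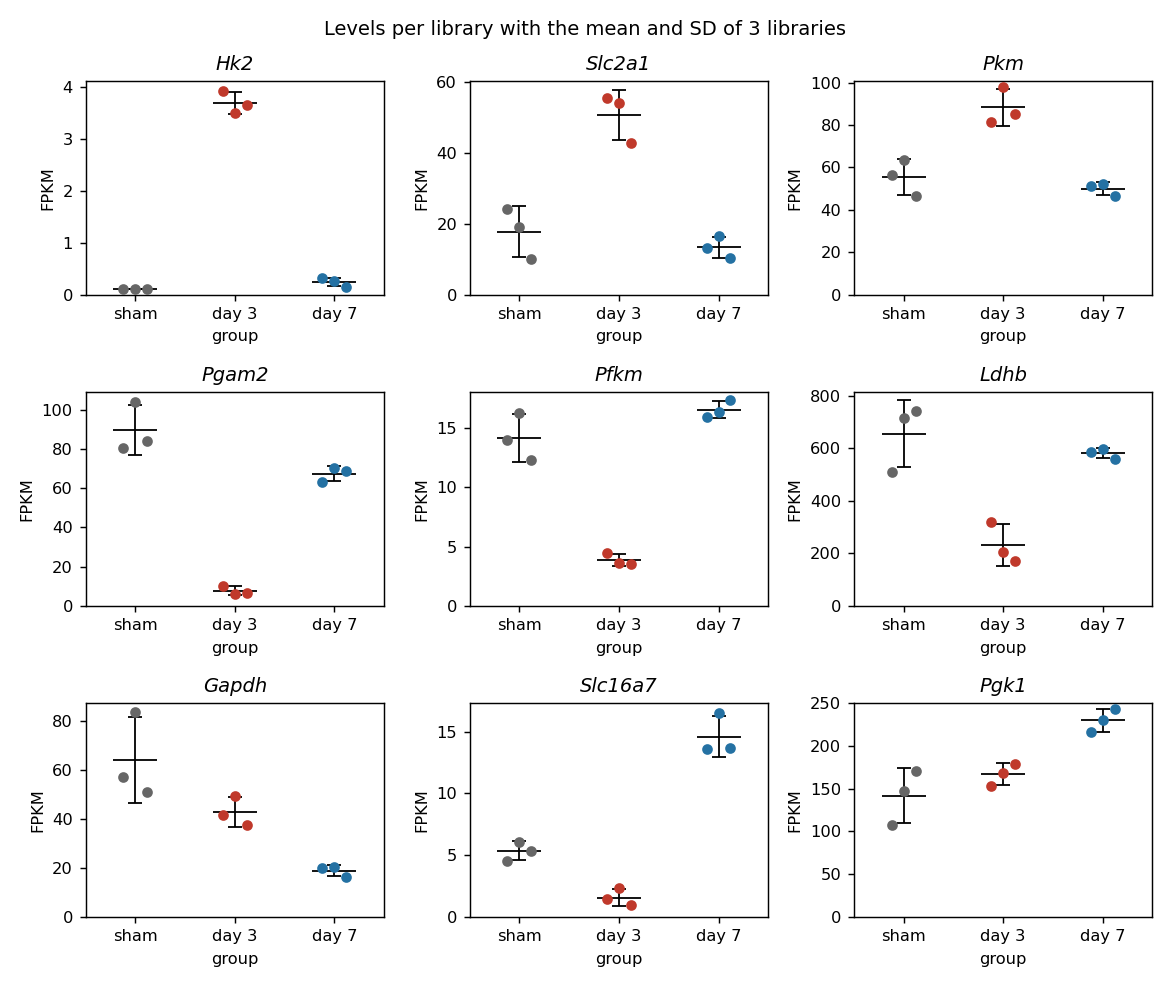
Points are FPKM (vertical axis) of single libraries in the 3 groups (horizontal axis) for 9 genes, with a long bar for the mean and a capped bar for the SD of 3 libraries. Hk2, Slc2a1 and Pkm are highest at day 3, Pgam2, Pfkm and Ldhb are lowest at day 3, and Gapdh is lowest while Slc16a7 and Pgk1 are highest at day 7.

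Enolase makes phosphoenolpyruvate. Eno1 (chromosome 4, 150236721 to 150248879), the form of most tissues, supplied 95.9% ± 2.17 of the summed enolase FPKM in sham and was not called. It stood at 70.42, 93.25 and 90.41 FPKM in sham, 80.63, 67.23 and 73.15 in Cis3d and 75.91, 77.07 and 78.32 in Cis7d. The day 3 value was -0.19 ± 0.13 (adjusted p = 0.233), which passed the threshold when scaled by median-of-ratios (-0.49, adjusted p = 0.025) or on leaving out sham library 1 (-0.32, adjusted p = 0.0357). Its near-identical copy Eno1b was listed at 8.04 to 16.15 FPKM.

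Eno3 (chromosome 11, 70657202 to 70662513), the muscle-type enolase, was at 4.69, 2.66 and 2.26 FPKM in sham, 8.41, 7.77 and 7.26 in Cis3d, and 2.98, 2.82 and 1.75 in Cis7d. The day 3 libraries were above all others, so that Eno3 rose by 1.11 ± 0.22 (adjusted p = 0.00249) and then fell by 1.34 ± 0.22 (adjusted p = 0.00102). Eno3 and Pgam2, both named for muscle, thus changed in opposite directions at day 3. Eno2, the neuronal type, was under the filter at 0.23 to 0.29 FPKM in sham, 0.93 to 1.34 in Cis3d and 0.17 to 0.43 in Cis7d, and a fit without the filter gave 0.77 ± 0.11 for day 3 (adjusted p = 0.00135).

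Pyruvate kinase makes pyruvate, from Pkm in most cells and from Pklr in liver, red cells and proximal tubule. Pkm (chromosome 9, 59656368 to 59679375) was at 56.43, 63.30 and 46.72 FPKM in sham, 81.42, 98.23 and 85.42 in Cis3d, and 51.11, 52.26 and 46.39 in Cis7d. The day 3 libraries lay above the other 6, and the gene rose by 0.67 ± 0.14 (adjusted p = 0.00268) and fell by 0.81 ± 0.14 from day 3 to day 7 (adjusted p = 0.0011). Gene-level values do not separate the M1 and M2 splice forms, and the unvalidated transcript Gm49759 on the same strand averaged 2.0, 8.65 and 3.1 FPKM.

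Pklr (chromosome 3, 89136142 to 89146784) was at 8.77, 7.83 and 8.21 FPKM in sham, 11.58, 5.55 and 5.10 in Cis3d, and 9.31, 9.55 and 9.76 in Cis7d. Day 3 library 1 was above sham and the other 2 were below it, so that the difference of -0.22 ± 0.24 was not called (adjusted p = 0.456). Without that library it was -0.55 (adjusted p = 0.002), and day 7 against day 3 went from 0.41 (adjusted p = 0.185) to 0.74 (adjusted p = 0.000558). Its overlap also left the log2 ratio of Pkm to Pklr at 2.60 ± 0.25 in sham and 3.49 ± 0.67 at day 3 (SD, n = 3; exact permutation p = 0.2).

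Both lactate dehydrogenase genes fell at day 3, Ldhb by the larger fold change. Ldhb (chromosome 6, 142490249 to 142507957), the heart-type subunit known for lactate use, had the highest mean FPKM of the set in each group. It was at 509.29, 713.78 and 741.89 FPKM in sham, 320.21, 203.09 and 170.39 in Cis3d, and 586.76, 595.78 and 560.04 in Cis7d. It fell by 1.53 ± 0.24 at day 3, with every library below the rest (adjusted p = 0.00059), and the day 7 libraries lay within the sham range (-0.15 ± 0.24, adjusted p = 0.659).

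Ldha (chromosome 7, 46841475 to 46855627), the muscle-type subunit known for lactate production, was at 149.20, 181.68 and 181.68 FPKM in sham, 120.54, 89.46 and 95.17 in Cis3d, and 144.11, 151.58 and 161.60 in Cis7d. It too was lowest in the day 3 libraries and fell by 0.75 ± 0.14 (adjusted p = 0.00184). Ldha supplied 20.9% ± 1.58 of the summed FPKM of both genes in sham, 31.3% ± 4.28 in Cis3d and 20.8% ± 1.41 in Cis7d. The larger share of Ldha at day 3 thus came with a lower Ldha level, and the sum of both genes was 826 ± 146, 333 ± 94.3 and 733 ± 13.0 FPKM.

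The carriers for glucose and lactate changed in different directions. Slc2a1 (chromosome 4, 119108711 to 119137983) encodes the facilitative glucose transporter GLUT1 and was at 24.20, 18.98 and 10.04 FPKM in sham, 55.55, 54.20 and 42.65 in Cis3d, and 13.08, 16.43 and 10.39 in Cis7d. All day 3 libraries were above all others, so that the gene rose by 1.54 ± 0.29 (adjusted p = 0.00186) and then fell by 1.87 ± 0.29 (adjusted p = 0.000751). Slc2a2, the GLUT2 gene of the proximal tubule and no member of the set, fell from 14.8 ± 5.06 to 1.94 ± 0.676 FPKM at day 3 (-2.40 ± 0.25, adjusted p = 7.92e-05) and reached 27.5 ± 3.94 at day 7 (0.90 ± 0.25, adjusted p = 0.0286).

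Monocarboxylate transporters carry lactate and pyruvate with protons. Slc16a1 (MCT1; chromosome 3, 104638668 to 104658462) was at 14.64, 6.27 and 7.78 FPKM in sham, 23.76, 18.37 and 20.81 in Cis3d, and 16.64, 16.02 and 17.56 in Cis7d. Every cisplatin library was above every sham library. The rise of 1.13 ± 0.25 at day 3 (adjusted p = 0.0043) held under each alternative run. At day 7 the value was 0.83 ± 0.25 (adjusted p = 0.0375), a call lost when any 1 of 7 libraries was left out: sham 2 or 3, day 3 library 2 or 3, or any day 7 library, with adjusted p of 0.0509 to 0.115. With the GC and length trend removed the day 7 value was 0.34 (adjusted p = 0.447). The call was also lost without a filter (adjusted p = 0.0894) and in a fit of only the 6 libraries compared (adjusted p = 0.0693).

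Slc16a7 (MCT2; chromosome 10, 125219270 to 125389465), the high-affinity form, was the 1 gene of the set called in opposite directions at the 2 times. It was at 4.55, 6.09 and 5.37 FPKM in sham, 1.43, 2.31 and 0.93 in Cis3d, and 13.59, 16.53 and 13.70 in Cis7d. None of the groups overlapped. It fell by 1.34 ± 0.20 at day 3 (adjusted p = 0.000473) and was 1.30 ± 0.20 above sham at day 7 (adjusted p = 0.00275). The second value was 0.55 (adjusted p = 0.148) with the GC and length trend removed.

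Slc16a3 (MCT4), the lactate exporter of glycolytic cells, stayed under the filter at 0.13 to 0.34 FPKM in sham, 0.65 to 1.29 in Cis3d and 0.15 to 0.27 in Cis7d. The 3 day 3 libraries were above all others, and without the filter the difference was 0.68 ± 0.13 (adjusted p = 0.00473). Slc16a7 supplied 37.4% ± 13.0 of the summed FPKM of these 3 transporters in sham, 6.72% ± 3.37 in Cis3d and 46.2% ± 3.69 in Cis7d, and the sum was 15.1 ± 3.85, 23.5 ± 2.06 and 31.6 ± 1.15 FPKM.

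Khk (chromosome 5, 30921431 to 30931248), the ketohexokinase that brings fructose into metabolism in proximal tubule cells, measured 150.76, 264.78 and 260.65 FPKM in sham, 23.07, 46.56 and 68.53 in Cis3d, and 179.40, 150.79 and 185.17 in Cis7d. It fell by 2.35 ± 0.37 at day 3, where every library was well below the rest (adjusted p = 0.000649), and day 7 overlapped sham (-0.35 ± 0.37, adjusted p = 0.511). Khk had the same order over the 3 day 3 libraries as the summed proximal tubule markers, and sham library 1 was the lowest of its group in both. Their part in the result was not tested.

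**Figure D4:**
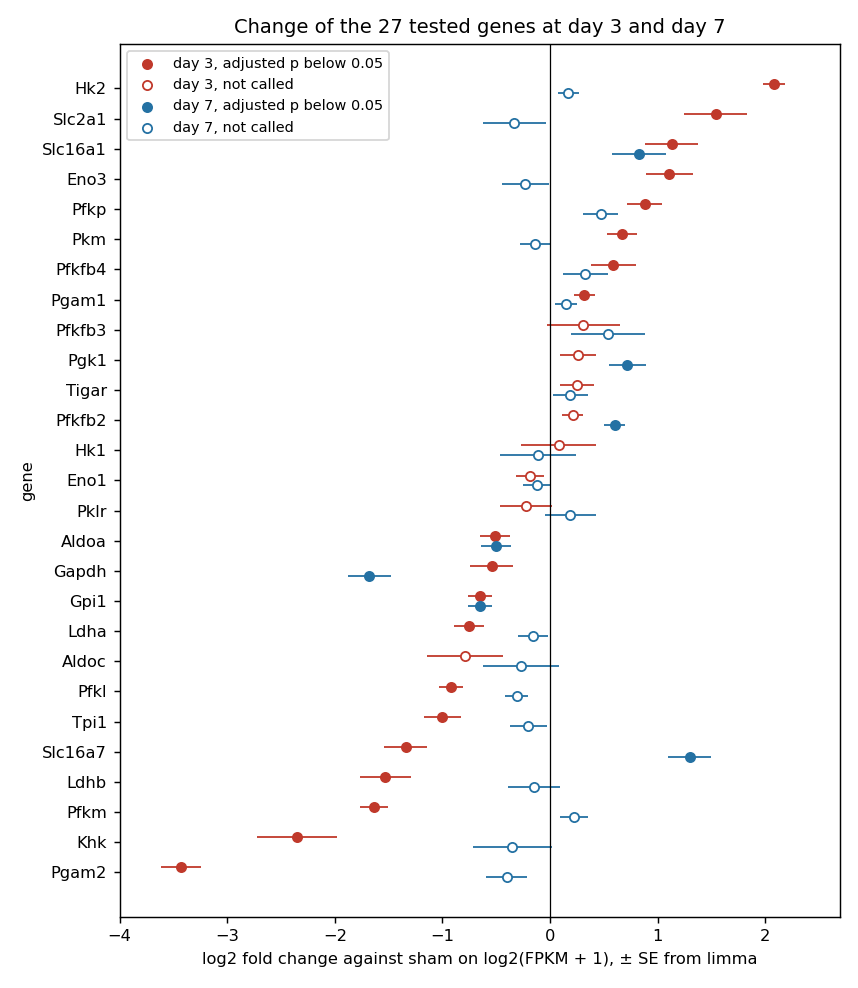
Log2 fold change against sham (horizontal axis) with its SE from limma for the 27 tested genes (vertical axis), red for day 3 and blue for day 7, filled where the adjusted p is below 0.05. Red points run from -3.43 for Pgam2 to 2.08 for Hk2, while blue points lie nearer 0 apart from Gapdh at -1.68 and Slc16a7 at 1.30.

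Ratios of 9 isoform pairs were compared between the groups, each as log2((A + 1)/(B + 1)) within a library. Day 3 and sham did not overlap for 6 of the 9 pairs, day 7 and sham for 4, and day 7 and day 3 for 7. In the same comparisons the levels of 64.0%, 48.7% and 64.4% of all single genes tested did not overlap, so these counts lay near the background. Over these 27 comparisons the smallest exact permutation p was 0.1 (two-sided, 0.159 after Benjamini-Hochberg adjustment), so no pair could reach 0.05. Slc2a1 to Slc2a2 had the largest difference, from 0.22 ± 1.08 in sham to 4.15 ± 0.25 in Cis3d and -1.01 ± 0.44 in Cis7d.

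Pfkp to Pfkl went from -1.40 ± 0.11 to 0.40 ± 0.18. This pair lay between the sham and day 3 values at day 7, at -0.62 ± 0.08 with no overlap with sham. Pfkm to Pfkl was 0.59 ± 0.09 in sham, -0.14 ± 0.14 in Cis3d and 1.12 ± 0.10 in Cis7d, so it was below sham at day 3 and above it at day 7. None of Pfkp, Pfkl and Pfkm was itself called against sham at day 7. Ldha to Ldhb was -1.92 ± 0.14, -1.14 ± 0.29 and -1.92 ± 0.12 in the 3 groups. Pfkfb3 to Pfkfb2 overlapped in every comparison, with 0.18 ± 0.62 in sham and 0.29 ± 0.39 at day 3.

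The set's summed level was 1886, 2406 and 2306 FPKM in sham, 1430, 1318 and 1270 in Cis3d, and 1954, 1977 and 1948 in Cis7d. All day 3 libraries were lowest, and Ldhb alone supplied 509.29 to 741.89 FPKM of the sham sums and 170.39 to 320.21 of those at day 3.

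Neighbouring pathways were read from lists of genes outside the set. All 8 genes of fructose use, gluconeogenesis and proximal glucose transport were lower at day 3 (20.6% of all genes were, and the median was -2.76, beside 0.25 over all genes). All 8 were higher at day 7 than at day 3 (21.7% of all genes were). G6pc, the glucose-releasing phosphatase, fell from 139 ± 96.4 to 3.11 ± 0.391 FPKM (-4.73 ± 0.61, adjusted p = 0.000231). Pck1, which starts gluconeogenesis from oxaloacetate, fell by 3.82 ± 0.69 (adjusted p = 0.00141), and Slc5a2, the apical glucose cotransporter SGLT2, by 3.15 ± 0.34 (adjusted p = 9.52e-05). At day 7 the 1 gene of the list called against sham was Slc2a2.

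Of 12 genes that admit pyruvate to mitochondria or control its oxidation, 2 were higher at day 3 (16.7%, beside 39.3% of all genes) and 7 lower (58.3%, beside 20.6%), with a median of -0.43 beside 0.25. The pyruvate dehydrogenase kinases split. Pdk4 was at 25.2 ± 30.2 FPKM in sham and 146 ± 47.2 at day 3 (3.25 ± 0.80, adjusted p = 0.00718), while Pdk2 fell from 85.5 ± 14.4 to 13.8 ± 6.98 FPKM (-2.63 ± 0.28, adjusted p = 8.57e-05). Pdp2, a phosphatase that reactivates the complex, fell by 1.43 ± 0.28 (adjusted p = 0.0022). At day 7, 3 of the 12 were higher (25.0%, beside 19.3% of all genes) and 0 lower, and all 3 encode parts of the complex: Dlat (0.90 ± 0.13, adjusted p = 0.00237), Pdha1 (0.68 ± 0.11, adjusted p = 0.00297) and Pdhx (0.66 ± 0.14, adjusted p = 0.00923).

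Among 11 tested genes of the pentose phosphate and hexosamine branches, which draw on glycolytic intermediates, 7 were higher at day 3 (63.6%, beside 39.3% of all genes) and 1 lower (9.09%, beside 20.6%), with a median of 0.84 beside 0.25. Pgm2 rose from 3.37 ± 0.701 to 22.0 ± 2.37 FPKM (2.40 ± 0.19, adjusted p = 2.32e-05). The lower gene was Pgm1, which fell from 37.6 ± 1.82 to 18.2 ± 7.74 FPKM (-1.08 ± 0.23, adjusted p = 0.00363). Taldo1, the transaldolase, rose by 1.66 ± 0.17 (adjusted p = 6.95e-05) and G6pdx, the entry enzyme of the pentose pathway, by 1.30 ± 0.14 (adjusted p = 7.9e-05). At day 7, 4 were higher (36.4%, beside 19.3%) and 1 lower (9.09%, beside 10.4%), led by Rpe (1.17 ± 0.15, adjusted p = 0.00173), Ugp2 (0.85 ± 0.15, adjusted p = 0.00484) and, lower, Pgls (-0.84 ± 0.18, adjusted p = 0.0096).

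Of 15 genes of the hypoxia-inducible factor axis, 6 were higher at day 3 (40.0%, near the 39.3% of all genes) and 5 lower (33.3%, beside 20.6%), with a median of -0.25. Among the 6, Ankrd37 passed the filter through its day 3 libraries alone. At day 7, 3 were higher (20.0%, beside 19.3%) and 2 lower (13.3%, beside 10.4%). Hif1a, the oxygen-regulated subunit, rose by 2.03 ± 0.18 (adjusted p = 3.05e-05) and Adm, the vasodilator peptide adrenomedullin, by 2.57 ± 0.31 (adjusted p = 0.000165). Ndrg1, a textbook target of the factor, fell from 556 ± 55.7 to 71.0 ± 16.7 FPKM (-2.97 ± 0.17, adjusted p = 5.56e-06). At day 7, Hif1a (1.30 ± 0.18, adjusted p = 0.00189) and Ero1l (0.72 ± 0.13, adjusted p = 0.00491) were above sham and Car9, a carbonic anhydrase, was below it (-0.92 ± 0.14, adjusted p = 0.0026).

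Of 8 transcription regulators known to act on glycolytic genes, 5 were higher at day 3 (62.5%, beside 39.3% of all genes) and 3 lower (37.5%, beside 20.6%), with a median of 0.71 beside 0.25. Klf5 rose by 2.16 ± 0.28 (adjusted p = 0.000232) and Klf4 by 2.04 ± 0.18 (adjusted p = 3.63e-05), while Mlxipl, which encodes the sugar-sensing factor ChREBP, fell by 1.65 ± 0.20 (adjusted p = 0.000173). At day 7, Myc (-1.0 ± 0.27, adjusted p = 0.023) and Trp53 (-0.76 ± 0.17, adjusted p = 0.0131) were below sham and Ppargc1a, the coactivator of mitochondrial genes, was above it (0.86 ± 0.19, adjusted p = 0.0103).

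Cell type markers moved at the same time. All 8 proximal tubule markers were lower at day 3 (median -2.95, with 20.6% of all genes lower), as were 6 of 6 of the thick ascending limb (median -2.28) and 4 of 6 of collecting duct principal cells (median -1.30). Of 7 injured tubule markers, 6 were higher (median 4.38, with 39.3% of all genes higher), and Sox9 among them passed the filter through its day 3 libraries alone. Neutrophil markers summed to 2.74 to 14.6 FPKM in sham, 30.8 to 109 in Cis3d and 4.56 to 22.7 in Cis7d. At day 3, 4 of 4 tested were higher (39.3% of all genes were). Of the 8 listed, Mmp8 passed the filter through its day 3 libraries alone, and Csf3r, Cxcr2, Mpo and Ly6g stayed under it. Of 6 tested macrophage markers, Cd68 was higher at day 3 and Csf1r, C1qa, C1qb and Cx3cr1 were lower (median -1.12), genes named after their values were seen. The list summed to 77.4 to 86.8 FPKM in sham, 130 to 196 in Cis3d and 42.1 to 119 in Cis7d, and Cd68, a lysosomal protein, went from 4.38 ± 0.651 in sham to 98.5 ± 13.7 FPKM at day 3. The part of any of these cell types in the set's changes was not tested.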

How the data were processed

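Kidney RNA from mice was read in 9 libraries, 3 each for sham, Cis3d and Cis7d. Per the labels' protocols, a directional NEB kit was used. The values are FPKM per gene, deposited by the authors and named so per the file headers. Per the submitters' processing notes, the tools were HISAT, StringTie and FastQC 0.10.1 and the build GRCm38, with no role or order named. Annotation release, strand setting and treatment of reads shared by gene copies: not given in the sources used here. Because the values of a library share 1 total, a gain in abundant transcripts reduces all others. No counts were used, so depth is unknown and no counting interval is given.

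Gene IDs were matched to symbols for 55144 of 55385 IDs, with coordinates on GRCm38. A gene was tested if 3 or more libraries reached 1 FPKM, on log2(FPKM + 1) with limma 3.58.1 in R 4.3.3. The fit held all 9 libraries with the group as the only term, eBayes with a mean-variance trend, two-sided tests and Benjamini-Hochberg adjustment over 13718 genes at 0.05. The fit was also run on simulated data in which few genes changed. Since many genes changed here, that run cannot speak to the scaling of the libraries. Fold changes carry SE, and group means carry SD. Isoform ratios and shares were compared by exact permutation tests. P-values of the fit set a difference in group means against the spread between libraries within groups. That spread was pooled over the 3 groups and moderated across genes. Permutation p-values give the share of regroupings of the compared libraries with a difference at least as large. Replicates shared at most 2.96% of their nonzero values, so none was a copy of another.

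The members, the lists and the tests were chosen with earlier results of these data known. All 31 genes are accounted for, and of each pathway list at most 3 called genes per comparison were named, largest change first, where 1 of the groups averaged 1 FPKM or more, besides the second gene of each isoform pair. Values of 1 further listed gene, and its isoform pair, were left out and are not reported here. The alternatives tried were leaving out each library, the replicate number as a block, fitting only the 6 libraries compared, robust variance, a pseudocount of 0.1, a filter at 5 FPKM or none, scaling by median-of-ratios, by quantiles or to genes not encoded by mitochondrial DNA, and removing a spline trend (5 degrees of freedom) on GC content and length. Promoter windows are from RefSeq, GRCm38.p6, and no window of Slc16a7 was found.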

Additional observations from a re-analysis of the deposited data

Results flagged for a closer look

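Slc16a7, the gene of the high-affinity lactate and pyruvate transporter MCT2, differed from sham in opposite directions at the 2 times after cisplatin. It fell by 1.34 ± 0.20 on the log2 scale at day 3 (3 of 3 libraries below all sham libraries) and was 1.30 ± 0.20 above sham at day 7 (3 of 3 libraries above). The difference between the 2 responses, which equals day 7 against day 3 since both use the same sham libraries, was 2.64 ± 0.20 (limma, adjusted p = 1.91e-05). With the trend on GC content and length removed the day 7 value against sham was 0.55 and was no longer called (adjusted p = 0.148), while day 3 was -1.66 (adjusted p = 0.000203).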

How the results depend on the processing

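Of the called genes, 15 of 19 at day 3, 2 of 7 at day 7 (Gpi1 and Gapdh) and 13 of 15 between the days kept their call in every alternative run. The day 3 calls lost in at least 1 were Pfkfb4, Aldoa, Gapdh and Pgam1. Day 7 calls lost were Pfkfb2, Aldoa, Pgk1, Slc16a1 and Slc16a7. Pgk1 and Pfkfb2 lost theirs between the days. Leaving out 1 library gave 17 to 20 called genes at day 3 (6 to 8 higher, 9 to 12 lower), 4 to 8 at day 7 (2 to 6 higher, 2 to 4 lower) and 14 to 16 between the days (9 to 10 higher, 5 to 6 lower). The lowest day 7 counts, 4 called and 2 higher, came without day 7 library 3. Without a filter, 8 genes were lower at day 7 than at day 3 in place of 5, since Eno2, Slc16a3 and Pfkfb1 then entered the test.

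Removal of the GC and length trend turned Aldoa at day 7 from -0.50 to 0.01, and over all genes it cut the day 7 calls from 2646 higher and 1429 lower to 584 and 272. The cause of these changes was not tested. A pseudocount of 0.1 turned the Slc16a3 to Slc16a1 ratio, day 3 against sham, from -0.45 to 0.54. Slc16a3 averaged 0.217 FPKM in sham and 0.963 at day 3, both below the main pseudocount of 1, while Slc16a1 averaged 9.56 and 21.0. The sign of this ratio's change thus depends on the pseudocount.

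With the replicate number as a block, 19, 9 and 16 genes were called at day 3, at day 7 and between the days, with Pfkp (adjusted p = 0.0379) and Pfkfb3 (adjusted p = 0.0404) added at day 7. Deviations of libraries with the same number correlated at -0.054 to 0.238, and those of libraries with different numbers at -0.28 to 0.115. The ranges overlap, with the highest value among same-numbered libraries. Whether the numbers mark a pairing was not tested. Low FPKM limits Hk2, Hk3, Pfkfb1, Eno2 and Slc16a3, whose values carry few significant digits, and with 3 libraries a group a missed threshold does not show equal levels.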
